A study of Mus musculus with 6 samples.

Results

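The miR-15/16 family is a group of microRNAs (miRNAs) whose guide strands share 1 seed, the short 5′ stretch with which a miRNA pairs to its targets. Its members were taken by name from the array annotation as every mouse miRNA with the stem miR-15a, miR-15b, miR-16, miR-195, miR-497 or miR-322, with any arm suffix. This gave 10 of the 567 mouse miRNAs on the array, measured by 28 probes. The 6 guide strands were mmu-miR-15a, mmu-miR-15b, mmu-miR-16, mmu-miR-195, mmu-miR-322 and mmu-miR-497, and the 4 passenger strands, written with a star in the array's older names, were mmu-miR-15a*, mmu-miR-15b*, mmu-miR-16* and mmu-miR-322*. The species prefix is left out below. Signal was high enough for a test in 6 of the 10, namely miR-15a, miR-15b, miR-15b*, miR-16, miR-195 and miR-322.

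The cells were Fr. B/C cells, the pro-B stage of B lymphocyte development, sorted from BALB/c mice and profiled on one-colour Agilent miRNA arrays with 100 ng of total RNA per sort. One group held 3 sorts from adult bone marrow, each pooled from the femurs and tibias of 3 female mice. The other held 3 sorts from fetal liver at day 16 of gestation, each pooled from the embryos of 1 litter, 8 on average, whose sex the labels do not give. No group was treated, and the study concerns Lin28b and fetal B lymphopoiesis, so that the design sets fetal against adult pro-B cells.

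A miRNA is cut from a hairpin precursor, and the guide strand is loaded into an Argonaute protein while the passenger strand is mostly degraded. The miR-15/16 family restrains growth and survival in lymphocytes by repressing cyclins of the D and E types, Cdk6 and the anti-apoptotic protein Bcl2. Its locus on human chromosome 13 is often deleted in chronic lymphocytic leukaemia, and mice that lack the corresponding miRNAs develop expansions of B cells.

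The guide strands are shown first because the shared seed defines the family and the rest of each strand is what a probe has to tell apart. They were taken from RefSeq (GRCm38.p6), where all 10 members were matched by name. Capitals mark the seed, bases 2 to 8, and each strand is written 5′ to 3′.
miR-15a: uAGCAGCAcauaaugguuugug
miR-15b: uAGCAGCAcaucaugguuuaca
miR-16: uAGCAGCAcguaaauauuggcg
miR-195: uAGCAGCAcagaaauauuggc
miR-497: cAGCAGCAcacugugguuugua
miR-322: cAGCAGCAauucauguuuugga
All 6 guides carried the seed AGCAGCA and 0 of the 4 passengers did, and 10 of the 1679 mature miRNA names in the RefSeq table have it (0.596%). After base 8, miR-16 and miR-195 had the same base at 11 of the 13 positions they share, miR-15a and miR-15b at 10 of 14, miR-15a and miR-497 also at 10 of 14, and miR-15a and miR-16 at 8 of 14.

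The genes lie in pairs. In GRCm38.p6 the mature miR-15a lies at chr14:61632075-61632096 on the minus strand, and its hairpin is 54 bases from that of Mir16-1, inside the long noncoding RNA gene Dleu2. The mature miR-15b lies at chr3:69009775-69009796 on the plus strand, and its hairpin is 66 bases from that of Mir16-2, inside Smc4, which encodes a condensin subunit. The mature miR-16 is the same 22 bases at both loci (chr14:61631936-61631957 and chr3:69009918-69009939), so its signal is the sum over both clusters and the array cannot divide it between them. MiR-195 (chr11:70235062-70235082, plus strand) and miR-497 (chr11:70234730-70234751, plus strand) form a further pair with 241 bases between hairpins. MiR-322 (chrX:53054306-53054327, minus strand), the mouse counterpart of human miR-424, lies 200 bases from Mir503 inside the long noncoding RNA gene C430049B03Rik.

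The Mir15b hairpin (chr3:69009772-69009835, plus strand) is printed because it is the only one with both strands tested. Capitals mark the guide arm on the left and the passenger arm on the right.
Mir15b: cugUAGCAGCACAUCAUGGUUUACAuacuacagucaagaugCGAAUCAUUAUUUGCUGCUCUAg

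A level below is the log2 of a miRNA's background-subtracted signal after scaling each array to a common 75th percentile, read from its brightest probe. Levels were held at a floor of 4.04, under which values have no order. Probes differ in how well they bind, so a level is compared between tissues for 1 miRNA and not between miRNAs. A test was made where most spots of a probe stood well above background on every array of either tissue, as they did for 135 miRNAs. All 135 passed on the bone marrow arrays and 52 of them also on the fetal liver arrays, so that a miRNA detected mainly in fetal liver was not tested. Of the members, miR-15a, miR-15b and miR-16 passed in both tissues, and miR-195, miR-322 and miR-15b* through bone marrow alone. A miRNA is called if limma, with p-values adjusted by the Benjamini-Hochberg method over those 135, gave an adjusted p under 0.05. Every difference is fetal liver minus bone marrow.

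Fetal liver replicate 2 was dim, with 7.02% of its mouse spots well above background against 18.4 to 23.7% on the other 5 arrays, and its negative control spots had the widest spread (SD 12.1 against 2.65 to 4.13). All arrays were on 1 slide with 1 scan time, with the bone marrow arrays in its first row and the fetal liver arrays in its second, so row and tissue cannot be told apart. Results are therefore also given without fetal liver replicate 2. The labels call each sample an individual sort.

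No family member was called. The 6 tested members gave 0 calls in either direction, where 29 of the 135 tested miRNAs (21.5%) were called, 14 higher (10.4%) and 15 lower (11.1%) in fetal liver. At an unadjusted p under 0.05 the counts were 0 of 6 and 44 of 135 (32.6%). Among the tested members 3 were higher and 3 lower in fetal liver, with a median difference of 0.0056, against 83 higher, 52 lower and a median of 0.25 over all tested miRNAs. The median size of the difference was 0.24 for the members and 0.59 for all tested. With 6 members these shares describe the family and were not tested against the rest. In sorted bulk samples a smaller number of cells of 1 type and less of a miRNA per cell cannot be told apart.

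**Figure D1:**
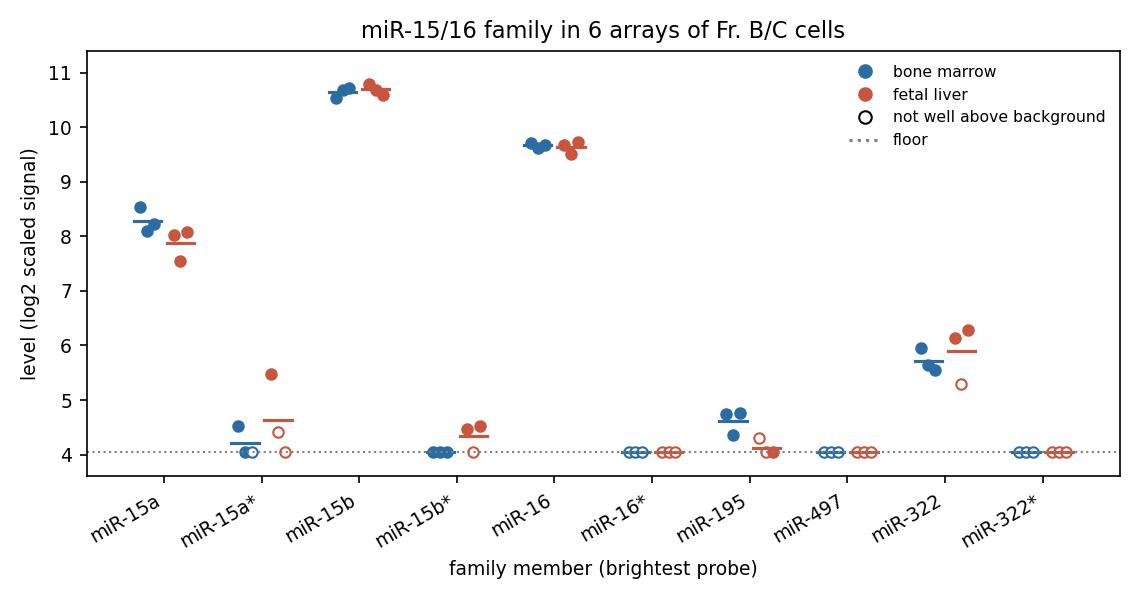
Level of each family member on each of the 6 arrays (log2 scaled signal, brightest probe), with 1 point per array, bars at the group means (n = 3 per tissue) and open points where the probe was not well above background. MiR-15b and miR-16 have nearly the same level on all 6 arrays, miR-15a and miR-195 are lower on every fetal liver array, and miR-16*, miR-322* and miR-497 lie at the floor of 4.04 throughout. Heights of different miRNAs are not comparable, since each has its own probe.

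MiR-16, the member common to the chromosome 14 and chromosome 3 clusters, had levels of 9.71, 9.62 and 9.68 in bone marrow replicates 1, 2 and 3 and of 9.67, 9.50 and 9.73 in fetal liver replicates 1, 2 and 3. The tissues overlapped, and the brightest and the dimmest of the 6 arrays were 1.18-fold apart. The means were 9.67 ± 0.05 in bone marrow and 9.63 ± 0.12 in fetal liver (SD, n = 3 each). The difference of -0.04 ± 0.19 (SE) was not called (limma with Benjamini-Hochberg adjustment, adjusted p = 0.877). Its 95% interval, -0.49 to 0.41, leaves room for anything between 0.714 and 1.33 times the bone marrow level. That interval is narrow for these arrays at this scaling, as 132 of the 135 tested miRNAs had a wider one, but it does not show that the levels were equal. Without fetal liver replicate 2 the difference was -0.02. It depended on the scaling. It was -0.36 (95% interval -1.33 to 0.61) when scaled over all mouse probes and -0.80 (-1.65 to 0.05) with no scaling. In the fit scaled over all mouse probes every tested member had the same SE (0.49). Its interval for miR-16 therefore does not reflect the spread of miR-16 itself. After quantile normalisation the difference of miR-16 was -0.17, and in the authors' deposited log2 table -0.14. MiR-16 was not called in any of these.

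MiR-15b, the guide encoded beside Mir16-2 in Smc4, had levels of 10.54, 10.67 and 10.72 in bone marrow and of 10.79, 10.69 and 10.59 in fetal liver, in replicate order. The tissues overlapped, and the whole range was 1.19-fold. The means were 10.64 ± 0.09 and 10.69 ± 0.10 (SD, n = 3 each). The difference of 0.05 ± 0.19 (SE) was not called (limma with Benjamini-Hochberg adjustment, adjusted p = 0.857). Its 95% interval ran from -0.40 to 0.50, or 0.757 to 1.41 times the bone marrow level. It was -0.0037 without fetal liver replicate 2.

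The dimmer of the 2 probes for miR-15b gave another answer. It read 9.618, 9.716 and 9.742 in bone marrow and 9.963, 9.997 and 9.961 in fetal liver, so every fetal liver array was above every bone marrow array. In a fit that used the second probe of each miRNA, where 9.63% of the 135 were called, miR-15b was higher in fetal liver by 0.28 ± 0.04 (SE; 95% interval 0.18 to 0.39; limma with Benjamini-Hochberg adjustment, adjusted p = 0.0218). Limma draws each SE toward those of the other miRNAs in a fit. In this fit miR-195 and miR-15b*, whose second probes lay at the floor on all arrays, had SEs of 0.01. The SE of miR-15b was 0.19 in the main fit, so the call rests on the second-probe fit's SE as well as on the difference. Within arrays the brighter probe exceeded the dimmer by 0.92, 0.96 and 0.97 in bone marrow and by 0.83, 0.69 and 0.63 in fetal liver, with no overlap. This gap was looked at because the 2 probes disagreed, so it describes that disagreement and is no separate test. The gap between the probes of miR-15a changed by 0.02 and that of miR-16 by 0.07, with overlapping tissues in both. The array annotation places the brighter miR-15b probe at chr3:68813699-68813718 (mm9) and gives the dimmer one no position.

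MiR-15a, the guide encoded with Mir16-1 in Dleu2, had levels of 8.53, 8.10 and 8.23 in bone marrow and of 8.03, 7.55 and 8.08 in fetal liver. All 3 fetal liver arrays were below the lowest bone marrow array, fetal liver replicate 3 by little. With the second probe the tissues overlapped, at 7.945 in fetal liver replicate 3 and 7.901 in bone marrow replicate 2. Groups that do not overlap were seen for 2 of the 6 tested members, miR-15a and miR-195, and for 55 of all 135 (40.7%), of which 25 were lower in fetal liver (18.5%). MiR-195 passed the filter through bone marrow alone, where it was higher, so its separation is favoured by the filter. The means were 8.29 ± 0.22 and 7.89 ± 0.29 (SD, n = 3 each). The difference of -0.40 ± 0.24 (SE; 95% interval -0.98 to 0.18) was not called (limma with Benjamini-Hochberg adjustment, adjusted p = 0.323). The second probe gave -0.42, and the difference was -0.29 without fetal liver replicate 2.

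**Figure D2:**
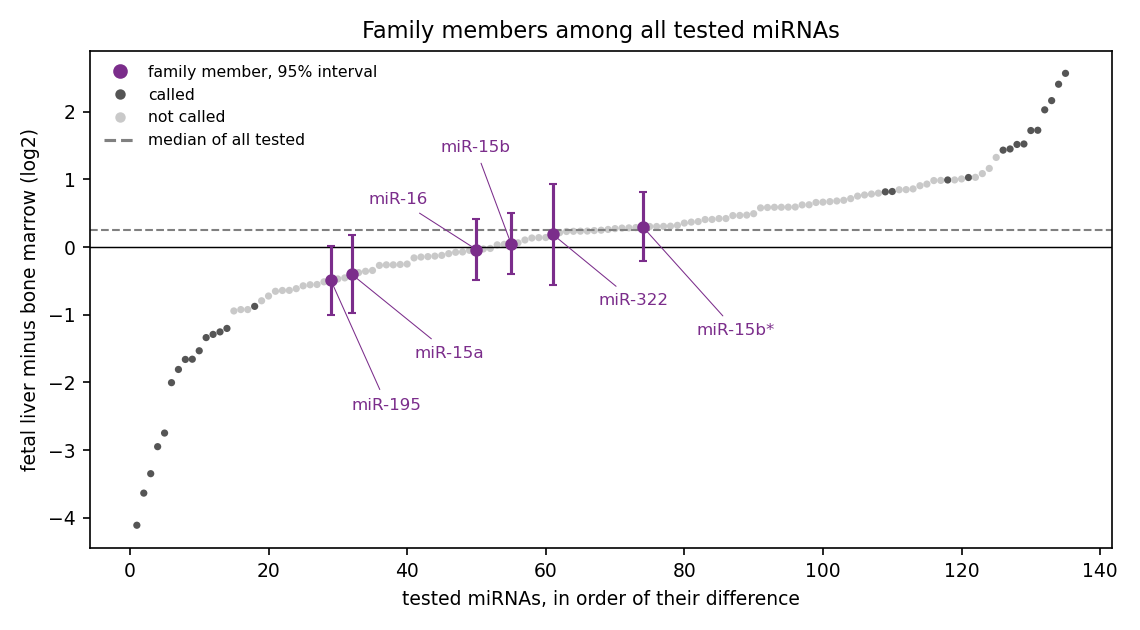
Difference between fetal liver and bone marrow (log2, vertical axis) for the 135 tested miRNAs in order of that difference (horizontal axis), with called miRNAs in dark grey and the 6 tested family members in purple with their 95% intervals. The members lie between -0.49 for miR-195 and 0.30 for miR-15b*, all but miR-15b* below the median of 0.25, and all 6 intervals include 0.

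MiR-195 has a guide closest to that of miR-16, with the same base at 19 of 21 positions. Whether its probe also reads miR-16 was not tested. MiR-195 was near the limit of detection. Its levels were 4.74, 4.36 and 4.75 in bone marrow, where all 3 arrays were well above background. In fetal liver they were 4.30 in replicate 1 and the floor of 4.04 in replicates 2 and 3, and replicate 3 alone was well above background. The difference of -0.49 ± 0.21 (SE; 95% interval -1.01 to 0.02) was not called (limma with Benjamini-Hochberg adjustment, adjusted p = 0.165). It depends on the floor, and a floor of 1 on the linear scale in its place gave -1.87, also without a call. The second probe lay at the floor on all arrays. MiR-497, the cluster partner of miR-195, was well above background on none of the 6 arrays and has no level here.

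MiR-322, which in other cells restrains the cell cycle through the phosphatase Cdc25a, had levels of 5.95, 5.64 and 5.56 in bone marrow. In fetal liver it had 6.14, 5.30 and 6.28. Fetal liver replicates 1 and 3 were above every bone marrow array, while replicate 2 was below them all and not well above background. The difference of 0.19 ± 0.31 (SE; 95% interval -0.56 to 0.93) was not called (limma with Benjamini-Hochberg adjustment, adjusted p = 0.674). Without fetal liver replicate 2 it was 0.44 (95% interval -0.06 to 0.94), also not called (limma with Benjamini-Hochberg adjustment, adjusted p = 0.167).

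The passenger strands were mostly undetected. MiR-16* and miR-322* were well above background on 0 of 6 arrays and lay at the floor on all of them. MiR-16* is the passenger of Mir16-1 alone. The passenger of Mir16-2 has another sequence and is not among the members, so it was not measured here. MiR-15b* had a signal well above background on all 3 bone marrow arrays, yet each lay at the floor of 4.04. Its fetal liver levels were 4.46, 4.04 and 4.52, with replicates 1 and 3 well above background. The difference of 0.30 ± 0.21 (SE; 95% interval -0.21 to 0.81) was not called (limma with Benjamini-Hochberg adjustment, adjusted p = 0.365). It depends on the probe and the floor: the other 3 probes lay at the floor on all arrays, a doubled floor gave 0, and the difference was 0.0060 with no scaling. Without fetal liver replicate 2 it was 0.50 and called (limma with Benjamini-Hochberg adjustment, adjusted p = 0.0425), in a fit that called 22.9% of 144 miRNAs. That fit also rescaled the arrays and tested more miRNAs, and with the scaling, the floor and the tested miRNAs kept, leaving out the same array gave 0.45 and no call (limma with Benjamini-Hochberg adjustment, adjusted p = 0.104).

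MiR-15a* was too sparse to test. It had levels of 4.53, 4.04 and 4.04 in bone marrow and of 5.48, 4.41 and 4.04 in fetal liver, and it was well above background on bone marrow replicates 1 and 2 and on fetal liver replicate 1. The highest value of the 6 came from fetal liver replicate 1, the other fetal liver arrays lay within the bone marrow range, and the mean difference of 0.44 rests on that array. The strands of miR-15a* and miR-15b* carry other seeds than the guides, marked in capitals as above.
miR-15a*: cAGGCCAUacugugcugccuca
miR-15b*: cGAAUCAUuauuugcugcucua

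Differences taken within an array are free of its scale factor, apart from the floor, and show whether cluster partners changed unequally. They were computed for 9 pairs of arms or partners, of which 3 had no value at the floor. MiR-15a minus miR-16 was -1.18, -1.52 and -1.44 in bone marrow and -1.64, -1.95 and -1.65 in fetal liver. The tissues did not overlap. Relative to miR-16, miR-15a was lower in fetal liver by a change of -0.37 ± 0.14 (SE), with the smallest p that 6 arrays allow (two-sided exact permutation test, p = 0.1; 0.45 with Benjamini-Hochberg adjustment over the 9 pairs). The change was -0.31 with the second probes and -0.26 without fetal liver replicate 2. It was smaller, and the tissues overlapped, with normexp background correction (-0.18; exact permutation test, p = 0.3), after quantile normalisation (-0.10; p = 0.5) and in the authors' deposited log2 table (-0.10; p = 0.6).

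The paralogous guides gave less clear values. MiR-15a minus miR-15b was -2.01, -2.57 and -2.48 in bone marrow and -2.76, -3.14 and -2.51 in fetal liver, where fetal liver replicate 3 lay within the bone marrow range. The change was -0.45 ± 0.25 (SE; two-sided exact permutation test, p = 0.2). MiR-15b minus miR-16 was 0.83, 1.05 and 1.04 in bone marrow and 1.12, 1.19 and 0.86 in fetal liver, so those groups overlapped, and the change was 0.08 ± 0.12 (SE; exact permutation test, p = 0.5). With the second probes, of which that for miR-15b gave the higher fetal liver values above, the change was -0.70 for miR-15a minus miR-15b and 0.39 for miR-15b minus miR-16 (exact permutation tests, p = 0.1 each). Guide and passenger of 1 hairpin could be set against each other only with values at the floor on some arrays: the change was -0.84 for miR-15a minus miR-15a* (p = 0.2) and -0.25 for miR-15b minus miR-15b* (p = 0.3, exact permutation tests).

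**Figure D3:**
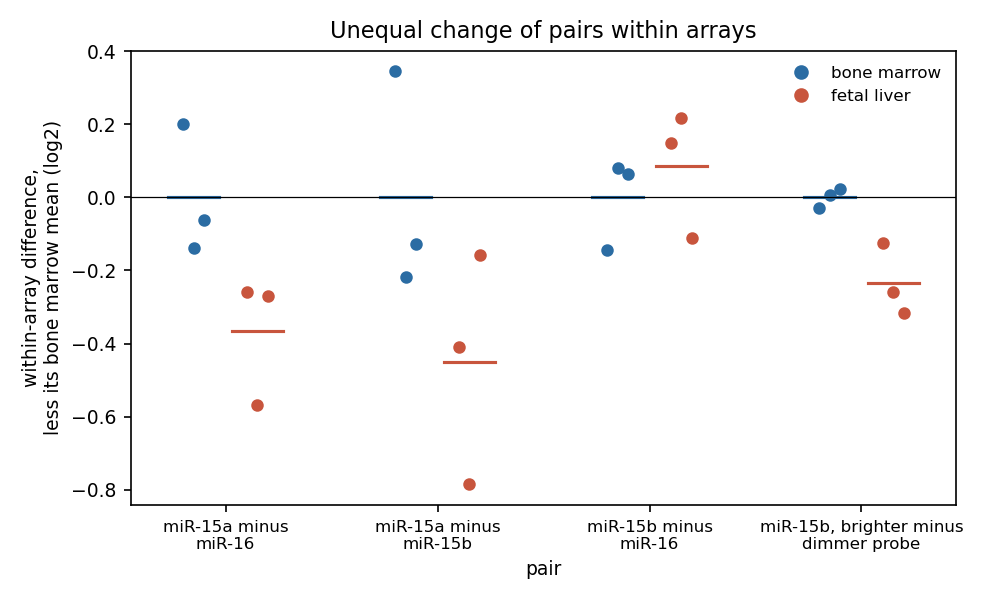
Within-array differences of 3 guide pairs and of the 2 miR-15b probes (log2), each less its bone marrow mean, with 1 point per array and bars at the group means (n = 3 per tissue). Bone marrow and fetal liver points do not overlap for miR-15a minus miR-16 and for the 2 miR-15b probes, and they overlap for the other pairs.

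The size of the members' differences depended on the scaling, which moved the median of all tested miRNAs from 0.25 in the main setting to -0.06 with all mouse probes, -0.50 with no scaling and 0.03 after quantile normalisation. The median was 0.02 in the authors' deposited log2 table, whose other steps may differ as well. Relative to that median, miR-15a stood at -0.65 in the main setting, -0.66 with all mouse probes and with no scaling, -0.25 in the deposited table and -0.30 after quantile normalisation. MiR-16 stood between -0.30 and -0.16 and miR-15b between -0.21 and -0.13 from it in the same 5 settings. Taken against 0, the difference of miR-15b and of miR-322 was positive in the main setting and negative in the other 4. None of the members was called under any of the 5. With all mouse probes every member had the same SE (0.49), so there the lack of a call does not reflect each member's own spread.

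**Figure D4:**
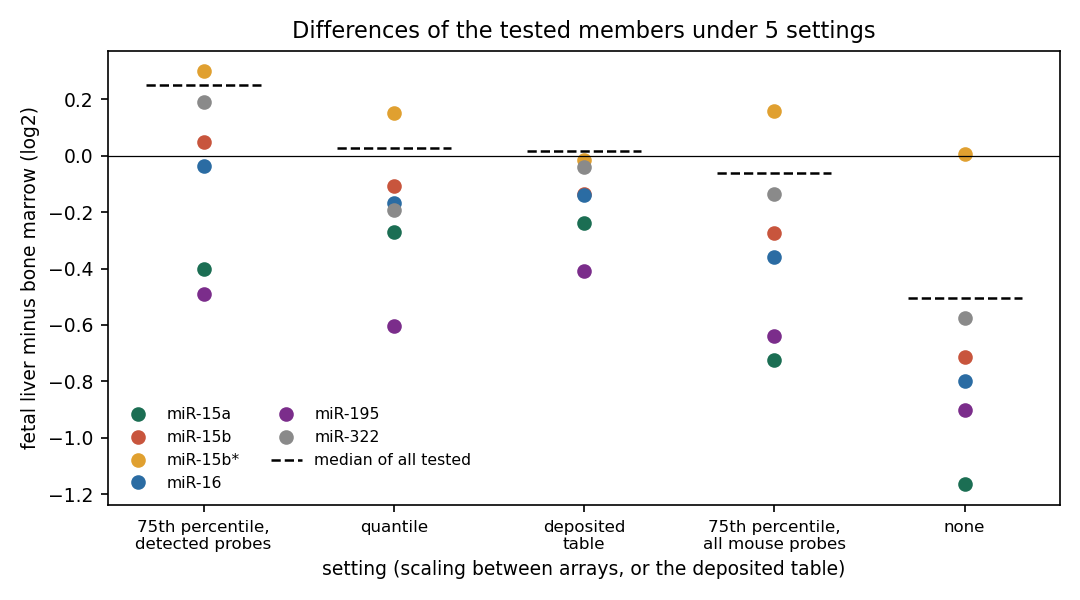
Difference between fetal liver and bone marrow (log2) of the 6 tested members under 4 ways of scaling the arrays and in the deposited log2 table, with a dashed line at the median of all tested miRNAs in each. MiR-15a, miR-15b, miR-16, miR-195 and miR-322 lie below the median in all 5 settings and miR-15b* in 1 of them, whereas the sign of miR-15b and of miR-322 against 0 changes between settings.

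Seed relatives outside the family were read from a list of 3. MiR-103 and miR-107, paralogs that repress the miRNA-processing enzyme Dicer, carry the letters of the family seed 1 base nearer the 5′ end, so that their own bases 2 to 8, in capitals, differ. They match each other at 22 of 23 bases and a probe may read both.
miR-103: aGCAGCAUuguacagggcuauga
miR-107: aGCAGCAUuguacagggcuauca
miR-503: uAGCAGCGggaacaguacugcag
MiR-503 matches the family seed at 6 of 7 bases.

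Both tested relatives were called higher in fetal liver. MiR-103 had levels of 6.30, 6.43 and 6.43 in bone marrow and of 7.34, 7.12 and 7.67 in fetal liver, without overlap. It was 1.99-fold higher, by 0.99 ± 0.22 (SE; 95% interval 0.47 to 1.52; limma with Benjamini-Hochberg adjustment, adjusted p = 0.0173). MiR-107 had 6.72, 6.77 and 6.72 against 7.45, 7.35 and 7.86 and was 1.76-fold higher (limma with Benjamini-Hochberg adjustment, adjusted p = 0.0362). Both calls depended on the processing. MiR-103 was called in 10 of 20 alternatives and miR-107 in 6, with differences of 0.23 to 1.12 and 0.05 to 0.92, and their second probes gave 0.56 and 0.35 and no call. Leaving out bone marrow replicate 1, 2 or 3 ended the call of miR-103 (differences of 0.95 to 1.01). The call of miR-107 ended without any array other than fetal liver replicate 2 (0.57 to 0.87). MiR-503 lay at the floor on every array. Of the 10 miRNAs listed as X chromosome cluster mates of miR-322, 9 were on the array, 0 were tested and 8 lay at the floor throughout. MiR-351 exceeded the floor only on fetal liver replicate 2, with 6.59 and no call as well above background.

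By Pearson correlation over the 6 arrays, the miRNAs that varied most like miR-16 were miR-126-3p (r = 0.944), miR-142-5p (0.942) and miR-148a (0.915). Each of these was well above background on 5 arrays. The lowest fetal liver level of miR-126-3p and of miR-148a was the floor of 4.04. The miRNAs that varied most like miR-15b were miR-23a (0.833), miR-128 (0.768) and miR-139-5p (0.756). Within the family miR-15b* and miR-322 had the highest r (0.829), with miR-15b* at the floor on every bone marrow array. MiR-15a and miR-16 had r = 0.824, miR-16 and miR-322 had 0.814, and miR-15a and miR-195 had 0.791. In contrast, miR-15b had r = -0.386 with miR-16 and -0.484 with miR-15a, and miR-15b* had -0.512 with miR-195. These values describe 6 arrays, each with a scale factor common to all of its miRNAs, and the lowest fetal liver levels of miR-16, miR-15a and miR-322 were those of the dim replicate 2.

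The sorted cells were checked against marker miRNAs. All 7 of the lymphoid list were well above background on every bone marrow array and 3 of them on every fetal liver array. Fetal liver replicate 2 had 54 miRNAs well above background, against 125 to 158 on the other arrays. In the main setting miR-155, miR-181b and miR-181d were higher in fetal liver (0.28, 0.14 and 0.82), and miR-181d was called. MiR-150, miR-181a, miR-181c and miR-34a were lower (-0.92, -1.25, -0.57 and -1.66). Of these, miR-181a and miR-34a were called, and miR-181a passed the filter through bone marrow alone. Over the alternatives miR-155 ran from -0.48 to 0.43 and miR-181b from -0.62 to 0.32. MiR-181d ran from 0.06 to 0.95 and was called in 2 of 19, against 12 of 19 for miR-181a and 13 of 20 for miR-34a. The summed scaled signal of the list was 1102 to 1269 in bone marrow and 564.6 to 933.4 in fetal liver. The 2 pan-haematopoietic markers gave 0 calls. The erythroid list summed to 100.1 to 170.0 in bone marrow and 515.6 to 773.2 in fetal liver, its 1 tested member of 3, miR-451, was called higher, and miR-144 lay at the floor on all arrays. The untested miR-486 lay at the floor in bone marrow and at 5.90, 5.95 and 4.65 in fetal liver, where 2 arrays were well above background. The myeloid list, miR-223 and miR-146a, summed to 390.7 to 724.0 and 58.2 to 131.8, and both were called lower. Both passed the filter through bone marrow alone, where they were higher, so their calls are favoured by the filter. The hepatocyte marker miR-122 was untested, at 0 to 0.56 in bone marrow and 0 to 31.7 in fetal liver, and 4 of the 5 stromal or endothelial markers on the array lay at the floor on all arrays. The part of these cells in the members' values was not tested.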

How the data were processed

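Levels of miRNAs were measured on 6 one-colour arrays, 3 per tissue. Per the file headers, Agilent Feature Extraction 9.5.3.1 made the deposited intensity values, and the processed signal used here is the mean spot signal less the background, not normalised between arrays. Its flags of 0 or 1 for outliers and for spots well above background are Feature Extraction's, per the file headers. A further table of log2 values, deposited by the authors, has 1 distribution (median 5.24) in all 6 columns. The steps behind it are not given in the sources used here, and it was an alternative only.

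From these, spots were averaged per probe without outlier flags. A probe was well above background where over 50% of its spots were. Arrays were scaled by the 75th percentile of the 82 probes that every array had well above background. The floor was 16.5 (log2 4.04): each array's 5th percentile of its scaled, well-above-background signals was taken, and the floor is the median of the 6. The brightest of 1 to 4 probes stood for a miRNA. Testing used limma 3.58.1 in R 4.3.3 (lmFit, eBayes, two-sided) with Benjamini-Hochberg adjustment over 135 miRNAs. The limma fit alone was tested on simulated data, without the spot averaging, scaling, floor, filter and probe choice before it. Exact permutation tests used scipy 1.17.1, and figures matplotlib 3.10.9. Precision is limited by 3 arrays per group. Probe positions are the files' mm9 coordinates, and sequences and gene positions are RefSeq's in GRCm38.p6.

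All family members were named, with 2 lists of related miRNAs, 6 marker lists, and the 3 tested miRNAs most correlated with miR-16 and with miR-15b. The members and lists were chosen with earlier results of these data known. Replicate numbers were not used to pair the tissues in the main fit. Alternatives covered the scaling, background correction (normexp, offset 50), probe choice, floor, filter, the deposited table, the replicate block and leaving out each array.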

Additional observations from a re-analysis of the deposited data

How the results depend on the processing

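Members stayed uncalled under the 20 alternatives, except for 1 call, of miR-15b, with the second probe (0.28) and 1, of miR-15b*, without fetal liver replicate 2 (0.50). Small differences changed sign. MiR-15b was -0.27 when scaled over all mouse probes, -0.72 with no scaling, -0.11 after quantile normalisation, -0.14 in the deposited table and -0.0131 with normexp. MiR-322 was -0.13, -0.57, -0.19 and -0.0412 under the first 4 of these, -0.0523 with the total gene signal and -0.0175 with the second probe. MiR-15b* was -0.0152 in the deposited table. MiR-16 was 0.0300 without fetal liver replicate 2 when scaling and tested miRNAs were kept, a setting chosen after seeing the data. Leaving out 1 array gave -0.59 to -0.28 for miR-15a, -0.0037 to 0.0843 for miR-15b, -0.18 to -0.0153 for miR-16, -0.61 to -0.41 for miR-195, -0.0904 to 0.44 for miR-322, 0.19 to 0.50 for miR-15b* and 0 to 1 for the members called. The cause of these changes was not tested.

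The count of called miRNAs, 29, was 9 with normexp, 13 with the second probe, 19 with the filter on all arrays (52 tested) and 12 with no filter, and 12 to 41 when 1 array was left out (12, 15 and 19 without bone marrow replicates 3, 2 and 1, and 41 without fetal liver replicate 3). The split of 14 higher and 15 lower became 6 and 15 with all mouse probes, 11 and 18 in the deposited table, 9 and 17 after quantile normalisation and 4 and 20 with no scaling. With the replicate number as a block 23 were called, 0 of them members. Same-numbered arrays had correlations of 0.17, -0.12 and -0.24 of their deviations from the tissue means. Differently numbered arrays had -0.33 to 0.32. With 3 arrays per tissue these values cannot settle whether the numbers pair the samples. Dim miRNAs are limited by the floor on every array and by background on fetal liver replicate 2, where the lowest probe signal well above background was 58.7 before scaling, and lower on each of the other 5 arrays.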
